A study of Mus musculus with 34 samples.

Results

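The genes described here encode ribosome biogenesis factors and nucleolar proteins, and they were followed through 4 courses of drug exposure in mouse leukaemia cells. The members were a list of 35 gene symbols, each read from 1 probeset, the brightest on average of those annotated to that symbol alone. Of these, 34 were measured, among 19938 measured genes in all, and Noc2l was not analysed here. Of the 34, 2 encode subunits of RNA polymerase I, 9 belong to the processome that makes the small subunit, 5 to the small nucleolar ribonucleoproteins (snoRNPs), 8 to the assembly of the large subunit and 5 to late steps of the small subunit, and 5 are other nucleolar proteins.

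Expression was measured on 34 Affymetrix Mouse Gene ST arrays in a pair of pre-B acute lymphoblastic leukaemia lines, Bin-2 and 8093. Each came from a BCR/ABL transgenic mouse, Bin-2 from a leukaemia of mixed genetic background and 8093 from one on inbred C57Bl/6J, and each stands for 1 leukaemia. Cells of all groups, the starts included, grew with IL-3 over irradiated mouse embryonic fibroblasts, and the cells that floated or lay loosely on that layer were harvested. Nilotinib, which inhibits the ABL kinase, was given at 50 nM to Bin-2 and at 20 nM to 8093, and lonafarnib, which inhibits farnesyltransferase, at 0.25 µM to Bin-2 and at 1 µM to 8093. In each of the 4 courses RNA was taken before drug (start, day 0), at a midpoint of low viability and at an end when the culture grew again under drug. The midpoint was day 3, or day 4 for 8093 with lonafarnib. The ends were day 21 (Bin-2 with nilotinib), day 30 (Bin-2 with lonafarnib), day 20 (8093 with nilotinib) and day 26 (8093 with lonafarnib). Viability was 20% at the lonafarnib midpoint of 8093, 5 to 10% at the other midpoints and about 90% at the ends. Of the 12 groups, 10 held 3 arrays from separate plates and the 8093 ends held 2 each. The plates of a group come from 1 line, so the p-values rest on the spread between plates, pooled for each gene over all 12 groups. That spread was unequal. The median standard deviation of the members was 0.07 at the nilotinib midpoint of Bin-2 and 0.23 at the nilotinib end of 8093.

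Values are log2 signals of a probeset, and changes are differences between group means of these signals, given ± SE, the standard error from a limma fit over all 34 arrays. Signals of different probesets are not on a common scale, so levels are set against each other within a gene only. Called genes are those whose p stayed under 0.05 after Benjamini-Hochberg adjustment over all 19938 genes, and "rose" and "fell" are used of called genes. The spread of signals within an array, as the interquartile range, had a mean of 3.16 at the lonafarnib midpoint of Bin-2 and 3.03 at the nilotinib midpoint of 8093, against 3.42 to 3.55 in the other 10 groups. These 2 midpoints are therefore given also after quantile normalization, which gives all arrays the same spread. Every measured member had a mean signal above 7, the lowest being 7.29, and called shares among genes this bright differed from those among all genes. Shares are therefore given for all genes and also for the 6277 genes with a mean signal above 7, called bright genes, a background chosen after the data were seen. The pre-B markers, 11 of 12 measured, averaged between 8.48 and 9.88 in each array of 11 groups, and between 5.35 and 5.50 in the 2 nilotinib end arrays of 8093. In the mast cell and granulocyte marker list, the granulocyte genes Mpo, Elane, Ltf, Ngp and Camp averaged 4.76 or less in every group. Higher means of this list came mainly from Cpa3, Mcpt1, Mcpt2, Fcer1a, Ms4a2 and Tpsb2. The signals are of bulk RNA, so fewer cells of a type and less RNA per cell cannot be told apart.

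Ribosomes are made in the nucleolus. RNA polymerase I transcribes a long precursor ribosomal RNA, which snoRNPs modify at chosen bases, while the small subunit processome and the large subunit factors fold and cleave it and add ribosomal proteins before both subunits leave the nucleus. Growing cells spend much of their transcription on this pathway, and many of its genes are known targets of MYC, which binds the E-box CACGTG.

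Promoter windows of 5 members are shown because these genes gave the largest falls at the nilotinib midpoint of 8093 (Rrp9, Utp4), at its end (Gnl3) and at the lonafarnib end of Bin-2 (Tsr1, Mybbp1a). The windows are from RefSeq (GRCm38.p6), run 5′ to 3′ from 250 bases before the gene start to 50 after it, and lie at chr9:106477059-106477358 on the plus strand (Rrp9), chr8:106893390-106893689 plus (Utp4), chr14:31019082-31019381 minus (Gnl3), chr11:74897830-74898129 plus (Tsr1) and chr11:72441077-72441376 plus (Mybbp1a). Capitals mark CACGTG.
Rrp9: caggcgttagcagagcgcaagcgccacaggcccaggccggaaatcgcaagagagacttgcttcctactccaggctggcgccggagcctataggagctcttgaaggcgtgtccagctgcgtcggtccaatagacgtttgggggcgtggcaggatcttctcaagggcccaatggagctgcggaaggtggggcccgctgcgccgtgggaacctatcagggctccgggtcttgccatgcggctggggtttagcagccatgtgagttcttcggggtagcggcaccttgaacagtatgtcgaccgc
Utp4: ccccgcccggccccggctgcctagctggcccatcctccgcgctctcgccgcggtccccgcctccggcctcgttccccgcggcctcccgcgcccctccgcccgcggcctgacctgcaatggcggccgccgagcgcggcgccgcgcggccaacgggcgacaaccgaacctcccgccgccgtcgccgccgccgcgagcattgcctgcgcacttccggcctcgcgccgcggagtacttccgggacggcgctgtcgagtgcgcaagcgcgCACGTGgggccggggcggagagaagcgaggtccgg
Gnl3: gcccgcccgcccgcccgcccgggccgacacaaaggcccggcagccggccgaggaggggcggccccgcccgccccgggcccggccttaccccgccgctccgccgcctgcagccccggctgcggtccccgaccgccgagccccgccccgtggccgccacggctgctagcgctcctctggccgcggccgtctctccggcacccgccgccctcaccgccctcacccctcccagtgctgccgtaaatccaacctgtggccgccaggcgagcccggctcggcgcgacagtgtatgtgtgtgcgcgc
Tsr1: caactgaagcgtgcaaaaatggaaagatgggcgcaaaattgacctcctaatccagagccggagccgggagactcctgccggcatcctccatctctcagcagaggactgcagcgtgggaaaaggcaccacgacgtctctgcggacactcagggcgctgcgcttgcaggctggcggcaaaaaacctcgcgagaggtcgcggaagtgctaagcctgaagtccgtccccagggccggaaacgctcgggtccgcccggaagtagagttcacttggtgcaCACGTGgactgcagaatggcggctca
Mybbp1a: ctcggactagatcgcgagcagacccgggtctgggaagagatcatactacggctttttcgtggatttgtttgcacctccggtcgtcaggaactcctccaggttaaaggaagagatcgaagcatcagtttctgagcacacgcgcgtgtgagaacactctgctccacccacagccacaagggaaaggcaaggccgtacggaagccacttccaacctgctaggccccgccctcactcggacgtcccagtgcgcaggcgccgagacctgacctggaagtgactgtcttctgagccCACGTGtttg
Of the 34 members, 29 had a window in this table. CACGTG, which reads the same on both strands, stood in the windows of 9 of them (31.0%), namely Ltv1, Mybbp1a, Nop2, Pes1, Tsr1, Utp18, Utp20, Utp4 and Wdr43. It stood in those of 12 of 79 other ribosome biogenesis genes with a window (15.2%), and in those of 8.09% of all 27025 genes with a window. Counted by window, since a gene can have several, it was in 7.15% of 32851. In 7 of the 9 members the motif began after the gene start. At the nilotinib midpoint of 8093 the median change was -1.26 in the 9 genes with the motif and -1.17 in the 20 without it. In the same order it was -1.14 and -1.09 at its nilotinib end. With lonafarnib in 8093 it was -0.30 and -0.15 at the midpoint and -0.20 and -0.15 at the end. In Bin-2 with nilotinib it was -0.17 and -0.25, then -0.11 and -0.20, and with lonafarnib -0.11 and -0.08, then -0.29 and -0.13. These differences were not tested. A match is a string of letters and does not show that a factor binds there.

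**Figure D1:**
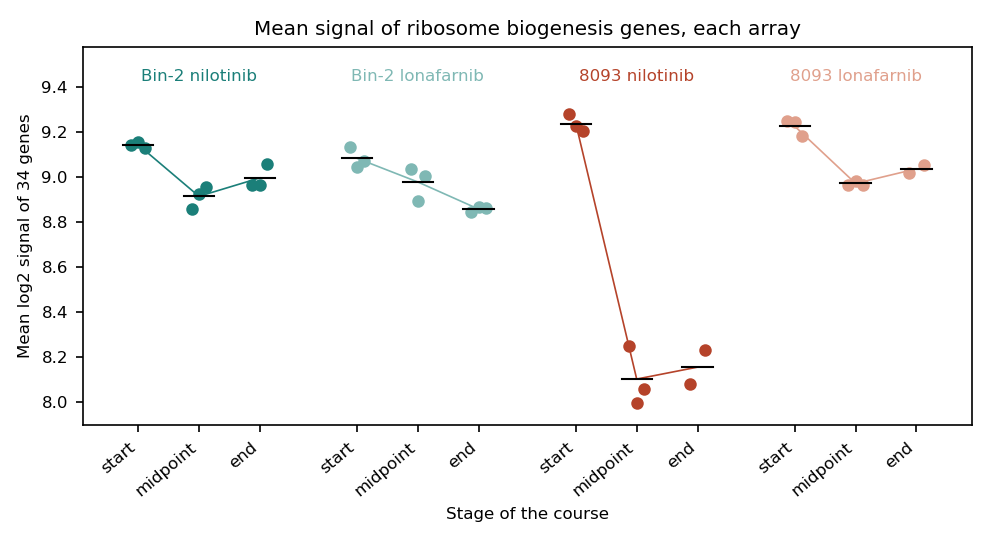
Mean log2 signal of the 34 measured ribosome biogenesis genes in each array (points), with the group mean (bars), at the start, midpoint and end of each course. The nilotinib midpoint and end of 8093 average 8.10 and 8.16, and the other 10 groups lie between 8.86 and 9.24.

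The mean over the 34 members summarises the courses before the single genes. With nilotinib in 8093 it was 9.24 ± 0.04 at the start (SD, n = 3), 8.10 ± 0.13 at the midpoint (n = 3) and 8.16 ± 0.11 at the end (n = 2). With lonafarnib in 8093 it was 9.23 ± 0.04, 8.97 ± 0.01 and 9.04 ± 0.02 at the same stages. In Bin-2 it was 9.14 ± 0.01, 8.91 ± 0.05 and 9.00 ± 0.06 with nilotinib, and 9.08 ± 0.04, 8.98 ± 0.08 and 8.86 ± 0.01 with lonafarnib (n = 3 each). The nilotinib midpoint and end of 8093 thus stood below every other group.

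At the nilotinib midpoint of 8093 all 34 measured members fell, where 27.5% of all genes fell and 22.6% rose. Among bright genes 59.3% fell and 12.4% rose. The median change of the members was -1.15, against -0.42 for bright genes and 0.03 for all genes. In all 34 the 3 midpoint arrays lay below the 3 start arrays, as they did for 28.7% of all genes and 60.5% of bright genes. Of the 92 measured genes of the same pathway that are not members, 87 fell and 0 rose, with a median of -1.04. The falls included 30 of 31 small subunit factors, 9 of 10 snoRNP genes, 40 of 41 large subunit factors and 8 of 10 genes of RNA polymerase I and its initiation. After quantile normalization 33 of the members fell, with a median of -0.91. The exception was Heatr1 at -0.18 ± 0.11 (adjusted p = 0.197), against -0.47 ± 0.11 (limma adjusted p = 6.13e-04) as deposited. Of the mast cell and granulocyte markers 7 of 11 rose at this midpoint, of the macrophage markers 11 of 12 and of the fibroblast markers 7 of 11. Summed as a mean over the list, mast cell and granulocyte markers were at 7.63 to 8.07 in the midpoint arrays, against 3.71 to 4.04 in the start arrays, and macrophage markers at 8.51 to 9.40, against 4.89 to 5.06. Fibroblast markers were at 4.93 to 5.16, against 4.53 to 4.63, and pre-B markers at 8.48 to 9.09, against 8.71 to 8.93. The part of these cells in the members' falls was not tested.

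Among the small subunit processome genes were the largest falls. Rrp9, a protein of the snoRNP that directs the early cleavages, gave 8.80, 8.54 and 8.62 at the start, 7.0, 6.65 and 6.76 at the midpoint and 6.98 and 7.66 at the end. It fell by 1.84 ± 0.13 to the midpoint (limma adjusted p = 1.18e-12), and by 1.33 ± 0.14 from start to end. Utp4, a scaffold protein that joins the precursor first, gave 10.41, 10.46 and 10.51, then 8.86, 8.58 and 8.59, then 9.12 and 9.23 at the same stages. Its fall was 1.78 ± 0.10 at the midpoint (limma adjusted p = 6.55e-14) and 1.29 ± 0.12 at the end. In both genes no midpoint or end array reached a start array. Heatr1, a large protein of the same scaffold, gave 9.44, 9.50 and 9.41 at the start, 8.98, 9.06 and 8.90 at the midpoint and 8.60 and 8.09 at the end. It had the smallest midpoint fall of the 34, and its end arrays lay lower still, by 1.10 ± 0.12 under the start. The other 6 members of the processome, Utp15, Wdr43, Utp18, Utp20, Nop14 and Noc4l, fell by 0.85 to 1.40 at the midpoint.

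The RNA polymerase I subunits and the snoRNP proteins moved the same way. Polr1b, the second-largest subunit of the polymerase, gave 8.75, 9.27 and 9.42 at the start, 8.06, 7.86 and 7.51 at the midpoint and 8.0 and 7.07 at the end. It fell by 1.34 ± 0.20 at the midpoint and by 1.62 ± 0.23 at the end, and Polr1a, the largest subunit, by 0.82 ± 0.09 and 0.69 ± 0.10. The 2 end arrays of Polr1b differed by more than its midpoint arrays did. Dkc1, the pseudouridine synthase of the H/ACA snoRNPs, gave 10.07, 10.06 and 10.11, then 8.67, 8.12 and 8.46, then 8.51 and 8.44. Nop56, a core protein of the C/D snoRNPs, which guide methylation, gave 11.04, 11.10 and 11.11, then 9.90, 9.93 and 9.69, then 9.17 and 9.89. Fbl, the methyltransferase of those particles, gave 9.12, 8.67 and 8.69, then 7.71, 7.53 and 8.01, then 7.06 and 7.78. All arrays of these 3 genes after drug were below all their start arrays. Their falls at the midpoint were 1.67 ± 0.12, 1.24 ± 0.14 and 1.08 ± 0.16, in the order named, and at the end 1.61 ± 0.14, 1.55 ± 0.15 and 1.41 ± 0.17. Fbl has 2 probesets, and the one not used correlated with the one used at 0.91 (Pearson) over all arrays.

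**Figure D2:**
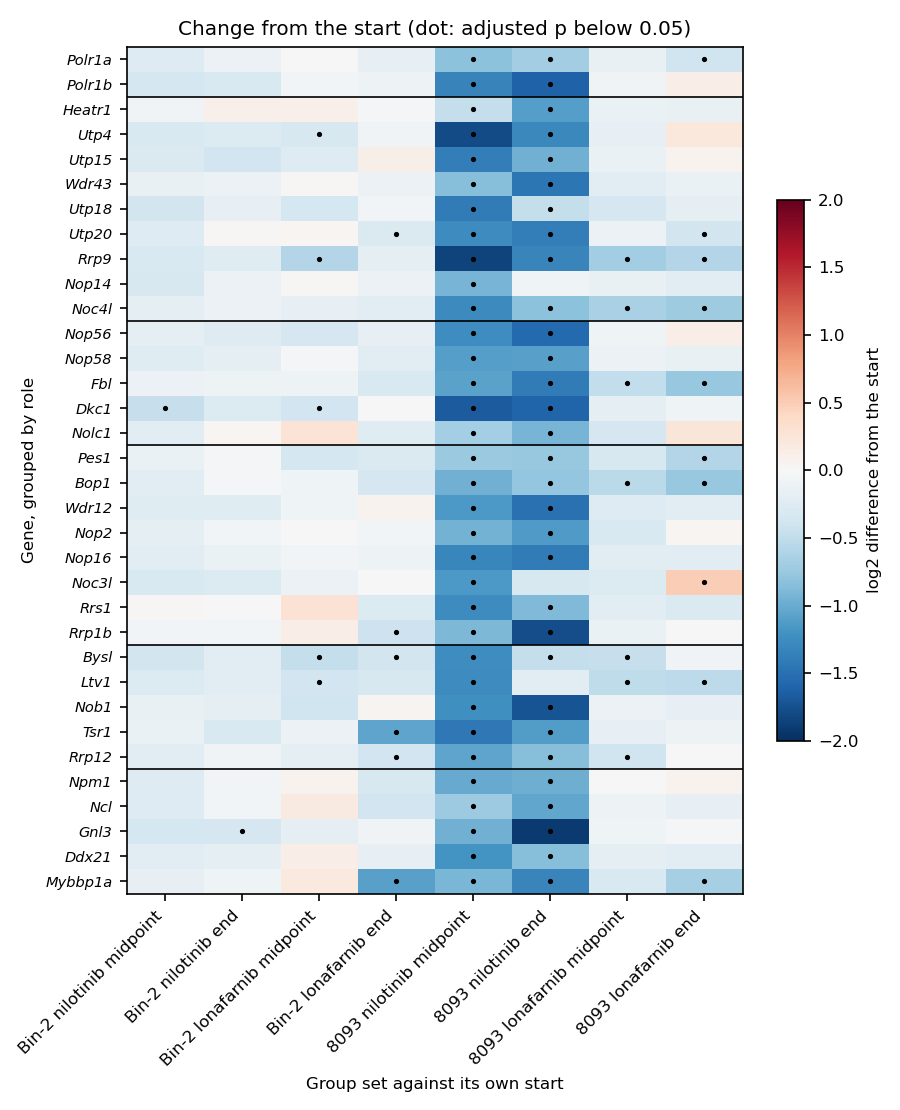
Change from the start of its own course (colour, log2 units) of each of 34 genes, grouped by role, at the midpoint and end of the 4 courses, with dots at called changes. The columns of the nilotinib course of 8093 are blue throughout, with 34 genes called at the midpoint and 31 at the end, and the other columns hold 1 to 10 called genes.

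The large subunit factors followed. Pes1, Bop1 and Wdr12 form a complex that is needed to process the large subunit's RNA. Pes1 gave 9.71, 9.43 and 9.33 at the start, 8.94, 8.73 and 8.56 at the midpoint and 8.44 and 9.02 at the end. Bop1 gave 8.84, 8.60 and 8.57, then 7.86, 7.66 and 7.60, then 7.73 and 8.06. Wdr12 gave 9.66, 9.81 and 9.54, then 8.64, 8.27 and 8.63, then 7.99 and 8.38. Wdr12 fell most of the complex, by 1.16 ± 0.11 at the midpoint and 1.49 ± 0.12 at the end, while Pes1 fell by 0.75 ± 0.13 and 0.76 ± 0.15 and Bop1 by 0.96 ± 0.11 and 0.77 ± 0.13. Rrs1, which helps to bring the smallest ribosomal RNA into the subunit, gave 7.69, 7.52 and 7.35 at the start, 6.57, 5.90 and 6.32 at the midpoint and 6.52 and 6.74 at the end. Rrp1b gave 8.54, 8.50 and 8.51, then 7.85, 7.45 and 7.54, then 7.03 and 6.45, a fall of 0.90 ± 0.12 at the midpoint and of 1.77 ± 0.14 at the end (limma adjusted p = 3.43e-12).

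Late small subunit factors and the other nucleolar proteins were also lower. Bysl, a factor of the maturing small subunit, gave 7.50, 7.69 and 7.77 at the start, 6.46, 6.50 and 6.27 at the midpoint and 7.01 and 7.35 at the end. Nob1, the endonuclease that makes the last cut of the small subunit's RNA, gave 9.05, 8.88 and 8.85, then 7.90, 7.54 and 7.65, then 6.77 and 7.64. Nob1 fell by 1.23 ± 0.14 at the midpoint and by 1.72 ± 0.16 at the end. Gnl3, or nucleostemin, a nucleolar GTPase abundant in proliferating cells, gave 10.85, 10.84 and 10.80, then 10.09, 9.52 and 9.98, then 8.82 and 9.03. Its end fall of 1.91 ± 0.12 (limma adjusted p = 4.77e-14) was the largest of the members there. Npm1, the nucleolar chaperone nucleophosmin, gave 11.18, 11.36 and 11.18, then 10.38, 10.11 and 10.19, then 10.13 and 10.39. Ncl, or nucleolin, which binds the nascent ribosomal RNA, gave 11.54, 11.54 and 11.34, then 10.87, 10.56 and 10.84, then 10.29 and 10.60. In these 5 genes no array after drug reached a start array. Ncl and Npm1 fell by 0.72 ± 0.13 and 1.02 ± 0.14 at the midpoint and by 1.03 ± 0.14 and 0.98 ± 0.15 at the end. The signal of Npm1 came from its own probeset, since 3 others are shared with Gm15484.

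At the nilotinib end of 8093, 31 of 34 members remained lower than at the start, where 24.9% of all genes fell and 19.6% rose. Among bright genes 41.2% fell and 27.6% rose. The median of the members was -1.09, against -0.15 for bright genes and -0.15 for all genes. Of the other pathway genes 74 of 92 fell and 2 rose. The members not called were Nop14 at -0.08 ± 0.12, Noc3l at -0.32 ± 0.14 and Ltv1 at -0.21 ± 0.15. Utp18 was called at -0.47 ± 0.18 (limma adjusted p = 0.0355) but not without end replicate 1 (adjusted p = 0.412), nor without start replicate 1 (adjusted p = 0.0971) or 2 (adjusted p = 0.0675). Bysl at -0.47 ± 0.12 was not called without end replicate 1 (-0.30, adjusted p = 0.119). The same 2 arrays had pre-B markers at 5.35 to 5.50, against 8.71 to 8.93 in the start arrays, and 10 of 11 of those markers fell. Their mast cell and granulocyte markers were at 8.15, against 3.71 to 4.04, and macrophage markers at 8.03 to 9.58, against 4.89 to 5.06. Among the former Cpa3 and Fcer1a averaged 13.59 and 12.84, against 4.70 and 3.23 at the start. Mpo, Elane, Ltf, Ngp and Camp averaged 2.68 to 4.25, against 3.31 to 4.55. The part of this difference in cell type markers in the members' falls was not tested.

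Between the nilotinib midpoint and end of 8093 members moved in both directions. As deposited, 11 were higher and 7 lower at the end, where 26.7% of all genes were higher and 27.8% lower. Among bright genes 49.5% were higher and 15.4% lower. The midpoint arrays have the narrow spread given above, and after quantile normalization 5 were higher and 17 lower. The 5 higher in both were Ltv1, Utp18, Nop14, Noc3l and Bysl. The 7 lower in both were Gnl3, Rrp1b, Heatr1, Wdr43, Nob1, Mybbp1a and Wdr12. The last 3 were not called without end replicate 1, with Nob1 at -0.05 (adjusted p = 0.791), Mybbp1a at -0.29 (adjusted p = 0.178) and Wdr12 at -0.14 (adjusted p = 0.434). Nor were they called without midpoint replicate 1, and Wdr12 was not called without midpoint replicate 3. These 3 also lost the call with each array centred on its median, and with only the groups compared. Wdr12 has 2 probesets, and their mean stood at -0.20 (limma adjusted p = 0.181). Ltv1, which acts at export of the small subunit, gave 7.61 and 7.61 at the end, against 6.36, 6.73 and 6.58 at the midpoint, a rise of 1.05 ± 0.15 (limma adjusted p = 7.60e-07). Utp18, a processome protein, gave 7.54 and 7.96 at the end, against 7.23, 6.77 and 6.47 at the midpoint, a rise of 0.92 ± 0.18. Gnl3 was 0.94 ± 0.12 lower and Rrp1b 0.87 ± 0.14 lower at the end than at the midpoint. Tsr1 was called higher as deposited (0.32 ± 0.13) and stood at -0.02 after quantile normalization. Of the members grouped under the snoRNPs or RNA polymerase I, none was called as deposited. Rrp9, grouped with the processome, was called higher as deposited, by 0.52. After quantile normalization it stood at 0.28 (limma adjusted p = 0.122).

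**Figure D3:**
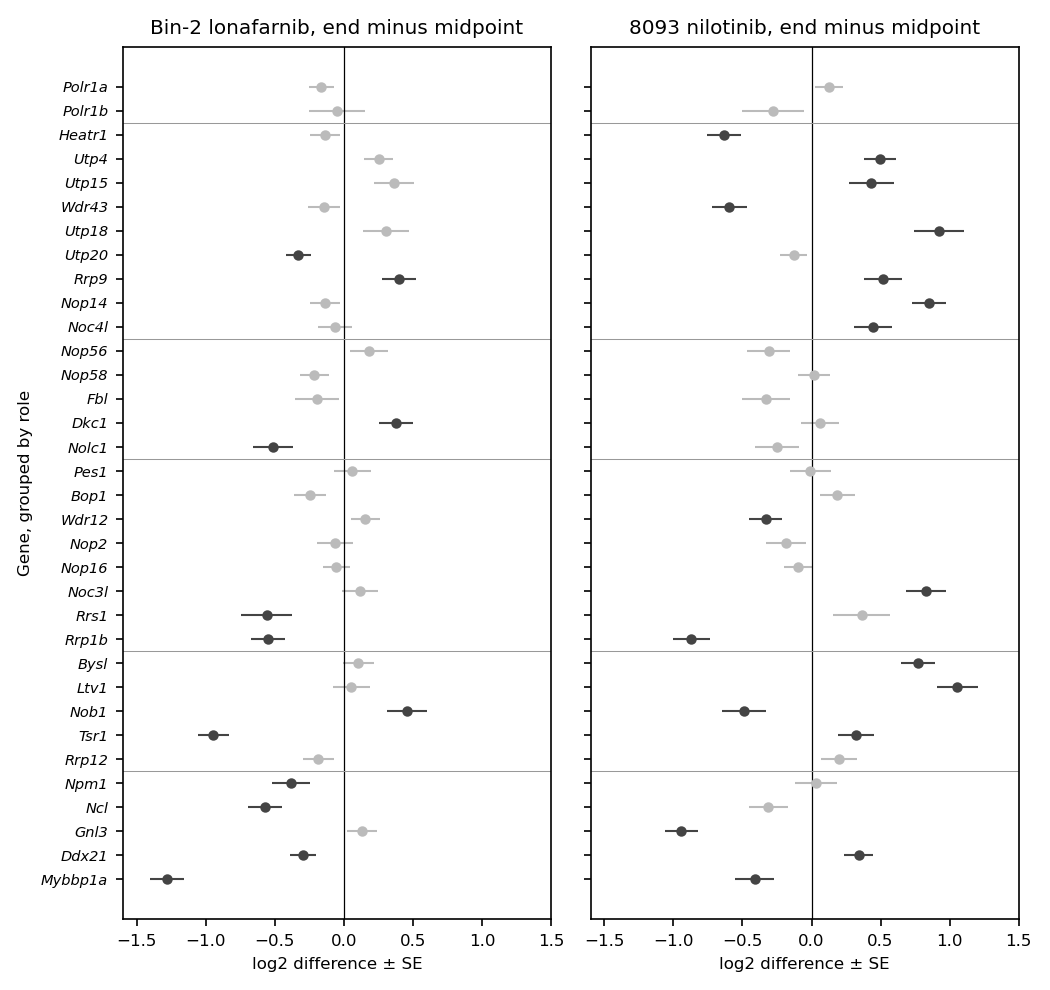
End minus midpoint (log2 units, bars with SE) for each of 34 genes grouped by role, in Bin-2 with lonafarnib (left) and 8093 with nilotinib (right), dark where called. In 8093 Ltv1 at 1.05 and Gnl3 at -0.94 mark the range, and in Bin-2 Mybbp1a at -1.28 and Tsr1 at -0.95 are lowest.

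Gnl3 is the member on chromosome 14, and its neighbours were low at the same end. This was looked at after the values were seen, by taking the 10 measured genes on each side of a member in RefSeq order with a mean signal above 7. Of the 20 neighbours of Gnl3, 12 fell and 6 rose at the nilotinib end of 8093, with a median of -0.69, while Gnl3 itself was at -1.91. Polr1b and Utp18 had neighbours about as low, with 13 of 20 lower for each and medians of -0.72 and -0.66. Over the 34 members these medians ran up to 0.38, for Heatr1. Over all 254 such genes of chromosome 14 the median was -0.63, with 154 lower, and the other 19 chromosomes had medians between -0.28 and -0.00. At the midpoint the 20 neighbours of Gnl3 had a median of -0.28, and chromosome 14 one of -0.53, against -0.49 to -0.37 on the other chromosomes. Chromosome 14 also had the lowest chromosome median in Bin-2 at the nilotinib end (-0.13) and at the lonafarnib midpoint (-0.23). The next lowest medians there were -0.13 and -0.22. Rrp1b, at -1.77, had neighbours at a median of -0.04 at the end. Other members also lay below their neighbours there, such as Dkc1, at -1.61 with neighbours at a median of 0.29. The number of gene copies was not measured here.

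In 8093 the falls under lonafarnib were fewer and smaller. At the midpoint 7 of 34 fell and 0 rose, where 6.90% of all genes fell and 3.89% rose. Among bright genes 15.4% fell and 5.93% rose. The median of the members was -0.21, against -0.09 for bright genes and 0.01 for all genes. Of the other pathway genes 30 of 92 fell. Rrp9 gave 8.04, 8.04 and 7.90 at the midpoint, against 8.74, 8.69 and 8.62 at the start, a fall of 0.69 ± 0.13 (limma adjusted p = 4.41e-04). Noc4l, a partner of Nop14 in the small subunit, gave 8.08, 8.07 and 7.90, against 8.74, 8.49 and 8.77, a fall of 0.65 ± 0.12. Neither gene's arrays overlapped between the stages. The other 5 were Bop1 (-0.54 ± 0.11), Ltv1 (-0.51 ± 0.13), Fbl (-0.50 ± 0.16), Bysl (-0.47 ± 0.11) and Rrp12 (-0.40 ± 0.11). Fbl was not called when any 1 start or midpoint array was left out, with a limma adjusted p between 0.0644 and 0.135. Nor was it called after quantile normalization (limma adjusted p = 0.120). When start replicate 1 or midpoint replicate 3 was left out, 4 were called. Mast cell and granulocyte markers were at 5.06 to 6.22 in these midpoint arrays, against 3.62 to 3.74 at the start, and macrophage markers at 6.04 to 7.02, against 5.02 to 5.08. Their part in the falls was not tested.

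At the lonafarnib end of 8093, 9 members fell, where 4.31% of all genes and 8.73% of bright genes did, and Noc3l rose. Fbl gave 8.60 and 8.16 at the end, against 9.21, 9.16 and 9.06 at the start, and fell by 0.76 ± 0.17. Bop1 gave 8.40 and 8.17, against 9.10, 8.90 and 9.15, a fall of 0.76 ± 0.13 (limma adjusted p = 1.61e-04). Noc4l, Mybbp1a, Pes1, Rrp9, Ltv1, Polr1a and Utp20 fell by 0.36 to 0.72. Of the 10 called, 6 were called without end replicate 1, and 2 (Bop1 and Noc4l) without end replicate 2. Among the other pathway genes 20 of 92 fell and 0 rose. Of the mast cell and granulocyte markers 4 of 11 rose, and their mean was 4.60 to 4.81 in the end arrays, against 3.62 to 3.74 at the start. Macrophage markers were at 5.08 to 6.08, against 5.02 to 5.08. Their part in the falls was not tested. Noc3l, a large subunit factor, gave 7.89 and 8.12 at the end, against 7.59, 7.58 and 7.37 at the start, a rise of 0.49 ± 0.14 (limma adjusted p = 0.0276), where 4.40% of all genes and 7.77% of bright genes rose. Without end replicate 2 its adjusted p was 0.352, and without start replicate 3 it was 0.127. Noc3l is on chromosome 19, where 15 of its 20 neighbours rose and 0 fell, with a median of 0.55. Rrp12 and Nolc1, the other members on that chromosome, were at 0.01 ± 0.13 and 0.25 ± 0.16, with neighbours at a median of 0.55 each. Over all 239 measured genes of chromosome 19 with a mean signal above 7, 142 rose and 0 fell, with a median of 0.50. On the other chromosomes 5.73% of such genes rose. Among these, chromosomes 18, 3, 17 and 8 also had positive medians, of 0.25, 0.16, 0.12 and 0.11. The remaining ones, mitochondrial genes aside, had medians between -0.13 and -0.04.

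Between midpoint and end of that course 4 members rose and 0 fell, where 3.95% of all genes rose and 2.31% fell. Among bright genes 8.0% rose. They were Noc3l (0.76 ± 0.14), Nolc1, a chaperone of snoRNPs (0.58 ± 0.16), Bysl (0.40 ± 0.12) and Utp4 (0.38 ± 0.12). Nolc1 gave 8.19 and 8.43 at the end, against 7.63, 7.88 and 7.67 at the midpoint. Noc3l and Nolc1 are on chromosome 19, and their 20 neighbours moved by medians of 0.56 and 0.66. Bysl and Utp4, on chromosomes 17 and 8, had neighbours that moved by medians of 0.21 and 0.19. After quantile normalization Noc3l was the member called higher and 3 members were lower, and 1 member was called without midpoint replicate 1, without midpoint replicate 3 or without end replicate 2.

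In Bin-2 nilotinib at 50 nM was followed by small shifts of the members. At the midpoint 1 of 34 was called, where 1.60% of all genes fell and 1.87% rose, and 2.71% of bright genes fell. This was Dkc1, with 9.47, 9.57 and 9.61 at the midpoint, against 9.95, 10.02 and 10.06 at the start. It fell by 0.46 ± 0.12 (limma adjusted p = 0.0281), but was not called when any 1 of the 6 arrays was left out, with an adjusted p between 0.0522 and 0.150. Of the 34, 33 had a negative difference, with a median of -0.23, against -0.06 for bright genes and 0.01 for all genes. In 28 of 34 the 3 midpoint arrays were all below the 3 start arrays, as for 14.7% of all genes and 29.6% of bright genes. Of the macrophage markers 11 of 12 rose, with a mean of 7.55 to 8.95 in the midpoint arrays, against 5.64 to 5.97 at the start. Mast cell and granulocyte markers were at 3.76 to 4.23, against 3.86 to 4.01. Of the other pathway genes 2 of 92 fell. Viability at this midpoint was 5 to 10%, as at the nilotinib midpoint of 8093. The line and the dose differ between these midpoints, and the part of viability was not tested. At the end 1 member, Gnl3, fell, where 3.94% of all genes did and 4.95% rose, and where 6.74% of bright genes fell. It gave 10.13, 10.15 and 10.30, against 10.48, 10.59 and 10.54 at the start, a fall of 0.34 ± 0.11 (limma adjusted p = 0.0467). The call was lost after quantile normalization (adjusted p = 0.0659) and without start replicate 1, 2 or 3 or end replicate 1 or 2, while 4 members were called without end replicate 3. All 12 macrophage markers rose to this end, with a mean of 8.08 to 9.67, against 5.64 to 5.97 at the start. Mast cell and granulocyte markers were at 5.81 to 6.20, against 3.86 to 4.01. The part of these cells in the shifts at either stage was not tested. Between midpoint and end limma called 0 members, with 1 at an unadjusted p below 0.05, where 0.416% of all genes fell and 0.998% rose.

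**Figure D4:**
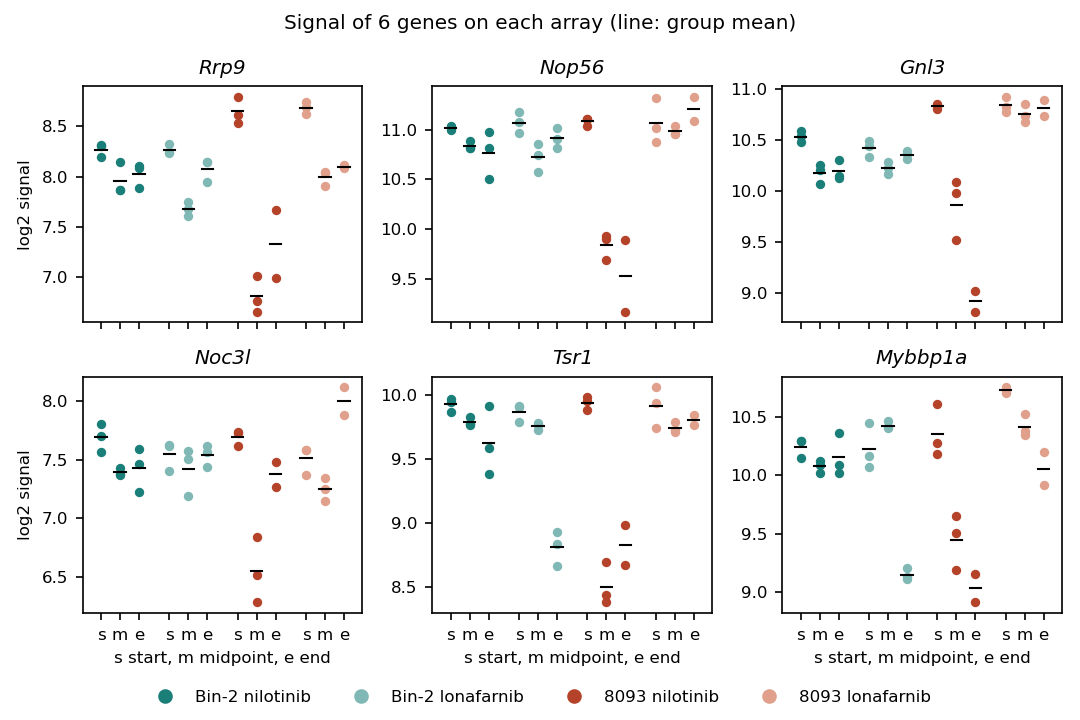
Log2 signal of Rrp9, Nop56, Gnl3, Noc3l, Tsr1 and Mybbp1a in each array (points) with group means, by stage in each course, each gene on its own axis. Rrp9, Nop56 and Gnl3 are lowest at the midpoint or end of 8093 with nilotinib, Noc3l reaches 8.12 at the end of 8093 with lonafarnib, and Tsr1 and Mybbp1a drop at the end of Bin-2 with lonafarnib.

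With lonafarnib in Bin-2 5 members fell at the midpoint, where 12% of all genes did and 4.45% rose. Among bright genes 26.3% fell, so the share of members that fell, 5 of 34, was not above that of bright genes. Rrp9 gave 7.68, 7.75 and 7.61 at the midpoint, against 8.32, 8.25 and 8.23 at the start, a fall of 0.59 ± 0.13 (limma adjusted p = 2.05e-03). Bysl gave 7.33, 7.32 and 7.03, against 7.70, 7.69 and 7.71, a fall of 0.47 ± 0.11. Dkc1, Ltv1 and Utp4 fell by 0.38, 0.38 and 0.32, and the arrays of Ltv1 overlapped between the stages. These arrays have the narrow spread given above, and after quantile normalization Rrp9 alone was called. The count was 2 without start replicate 3 or midpoint replicate 2, and 3 without start replicate 2 or midpoint replicate 3. Of the other pathway genes 21 of 92 fell. Fibroblast markers were at 4.85 to 5.31 in these arrays, against 4.54 to 4.69 at the start, and macrophage markers at 6.64 to 7.06, against 5.49 to 5.87. Pre-B markers were at 9.26 to 9.42, against 9.59 to 9.77. Their part in the falls was not tested.

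At the lonafarnib end of Bin-2 6 members fell, where 3.41% of all genes and 5.70% of bright genes did and 4.66% of all genes rose, and 2 of them fell by about a log2 unit. Mybbp1a, a nucleolar protein that binds MYB and p53 and takes part in ribosomal RNA synthesis, gave 9.13, 9.20 and 9.11 at the end, against 10.45, 10.16 and 10.07 at the start. It fell by 1.08 ± 0.12 (limma adjusted p = 3.20e-07). Tsr1, a GTPase-like protein on the late small subunit, gave 8.67, 8.84 and 8.93 at the end, against 9.79, 9.90 and 9.91 at the start, a fall of 1.06 ± 0.11 (limma adjusted p = 9.29e-08). At the midpoint both had been near the start, with Mybbp1a at 10.41, 10.46 and 10.41 and Tsr1 at 9.73, 9.76 and 9.78. Rrp1b, Rrp12, Bysl and Utp20 fell by 0.29 to 0.41. Mybbp1a and Tsr1 were called in every alternative run, while 2 members in all were called without start replicate 1 or end replicate 2, and 3 without start replicate 3 or end replicate 1. Between midpoint and end 9 members fell and 3 rose, where 9.97% of all genes fell and 19.8% rose. Among bright genes 6.79% fell and 39.4% rose. Mybbp1a fell by 1.28 ± 0.12 and Tsr1 by 0.95 ± 0.11, followed by Ncl (-0.57 ± 0.13) and Rrs1 (-0.56 ± 0.18). Nob1 rose by 0.46 ± 0.14, with 8.68, 8.85 and 8.88 at the end, against 8.40, 8.31 and 8.33 at the midpoint, and Rrp9 and Dkc1 by 0.40 ± 0.13 and 0.38 ± 0.12. After quantile normalization the 9 remained lower, 14 were lower in all and none was higher.

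Mybbp1a and Tsr1 both lie on chromosome 11, and the genes between and around them were lower at the same end. Between them in RefSeq order are 13 measured genes with a mean signal above 7, of which 12 fell, with a median of -0.75. Of such genes on all other chromosomes 3.31% fell, and their median was 0.05. Of the 20 nearest neighbours 19 fell for Mybbp1a and 19 for Tsr1, with medians of -0.75 and -0.74. The running median of 21 consecutive genes stayed at or below -0.4 from Rai1 to Cltc, a stretch of 170 genes of which 155 fell and 2 rose, with a median of -0.72. The other 372 genes of chromosome 11 had a median of 0.03, and 13 of them fell. In the same stretch the median change was -0.06 at the end of Bin-2 with nilotinib, -0.16 at the midpoint of Bin-2 with lonafarnib, and -0.13 and -0.14 at the ends of 8093 with nilotinib and with lonafarnib. Pes1, Npm1 and Utp18, the other members on chromosome 11, lie outside it and were not called at this end. Of the other pathway genes 7 of 92 fell there, and 5 of these lie in the stretch: Utp6 (-0.75 ± 0.10), Ddx52 (-0.86 ± 0.12), Nle1 (-0.88 ± 0.11), Senp3 (-0.85 ± 0.15) and Pelp1 (-0.75 ± 0.13). The bounds of the stretch were taken from these values, so its count is a description. The number of gene copies was not measured here.

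**Figure D5:**
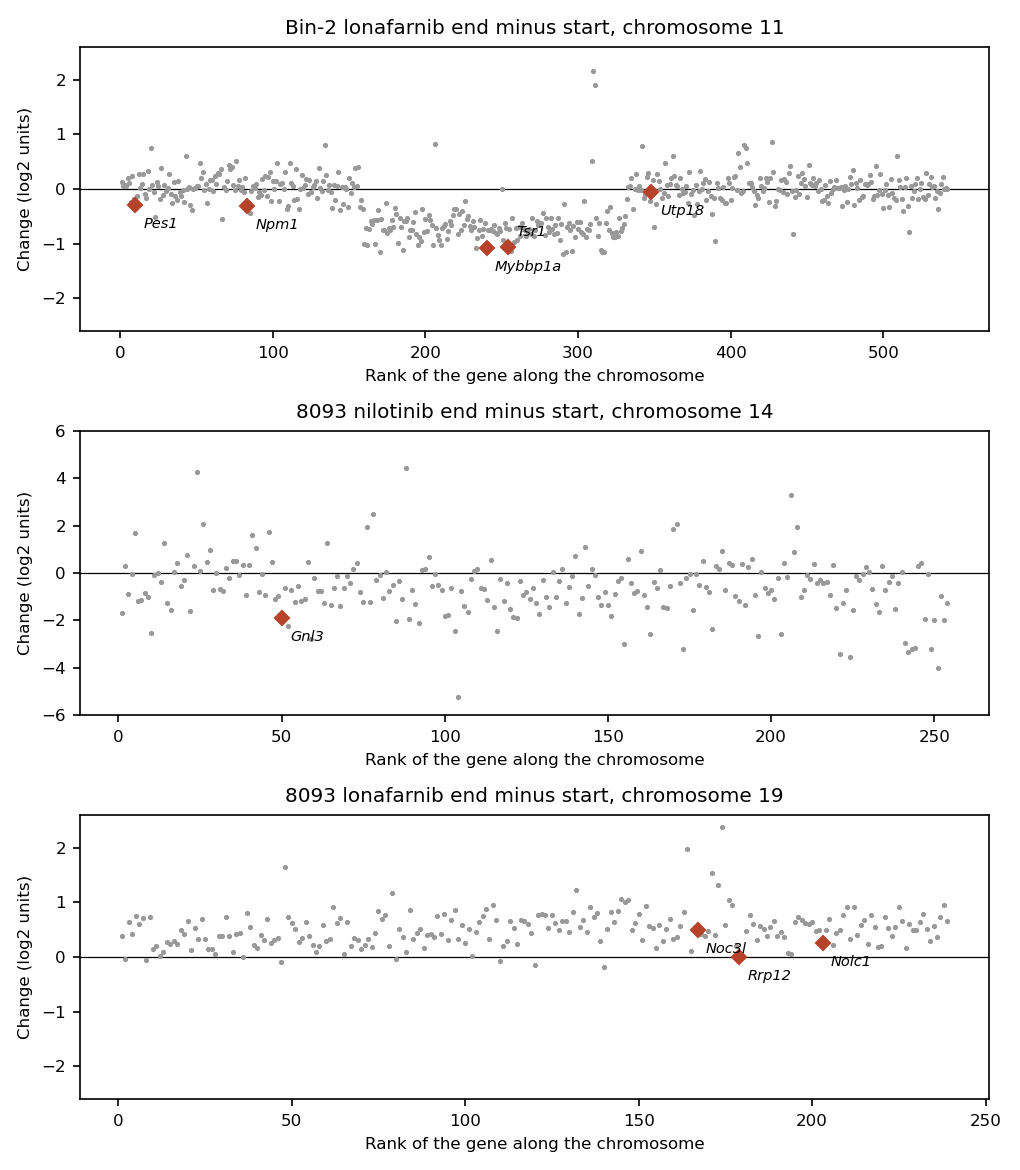
Change from start to end (log2 units) of measured genes with a mean signal above 7, by their rank along the chromosome, for chromosome 11 in Bin-2 with lonafarnib, chromosome 14 in 8093 with nilotinib and chromosome 19 in 8093 with lonafarnib, with members of the set as diamonds. Mybbp1a and Tsr1 sit in a stretch of 170 genes with a median of -0.72, Gnl3 on a chromosome with a median of -0.63, and Noc3l, Rrp12 and Nolc1 on one with a median of 0.50.

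Before drug the lines differed little in these genes. Over both starts of each line 1 member was higher and 7 were lower in Bin-2 than in 8093, where 9.47% of all genes were higher and 10.6% lower. Among bright genes 16.8% were higher and 19.3% lower. Rrp9 gave 8.31, 8.30, 8.19, 8.32, 8.25 and 8.23 in the 6 Bin-2 start arrays, against 8.80, 8.54, 8.62, 8.74, 8.69 and 8.62 in the 6 of 8093, with no overlap. It was lower in Bin-2 by 0.40 ± 0.09 (limma adjusted p = 1.11e-03). Noc4l was lower in Bin-2 by 0.38 ± 0.09, with 7.90 to 8.39 in Bin-2 and 8.31 to 8.77 in 8093, ranges that overlap. Gnl3, Utp18, Fbl, Mybbp1a and Bop1 were lower by 0.26 to 0.36, and Nop2, a methyltransferase of the large subunit's RNA, was higher by 0.27 ± 0.09. The count was 3 without replicate 1 of the nilotinib start of 8093, and 5 without replicate 1 or 3 of the lonafarnib start of 8093, replicate 1 of the nilotinib start of Bin-2, or replicate 2 or 3 of its lonafarnib start. Between the starts of the nilotinib and lonafarnib courses limma called 0 members in Bin-2 and 0 in 8093. It also called 0 of all 19938 genes in each line, so these counts do not set the members apart. At an unadjusted p below 0.05 there were 0 members in Bin-2 and 7 in 8093. Without replicate 1 of the nilotinib start of 8093 limma called 1 member.

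The difference between the drugs was tested as the nilotinib change minus the lonafarnib change within a line. The doses and most of the days differ, so these are differences between courses. In 8093 29 of 34 members were lower under nilotinib at the midpoint, where 17.6% of all genes and 40.9% of bright genes were lower and 9.19% of all genes higher, with a median difference of -0.88. The 5 not called were Fbl, Bop1, Pes1, Nolc1 and Heatr1, whose differences were -0.58 ± 0.22, -0.42 ± 0.16, -0.43 ± 0.19, -0.34 ± 0.20 and -0.33 ± 0.15. After quantile normalization 27 of the 29 remained lower, and Noc4l and Nop2 were not called. At the end 25 were lower, where 17.4% of all genes and 31.9% of bright genes were lower and 15.7% of all genes higher, with a median of -0.94. Of these, Fbl lost its call in 10 of 18 alternative runs, Mybbp1a in 2 and Rrp9 in 1. With the mean of its 2 probesets Fbl stood at -0.51 (limma adjusted p = 0.104). In Bin-2 limma called 0 members at the midpoint, with 6 at an unadjusted p below 0.05 and 0.441% of all genes lower and 1.04% higher. At the Bin-2 end 2 members, Mybbp1a at 0.99 ± 0.18 and Tsr1 at 0.76 ± 0.16, were higher under nilotinib, where 4.65% of all genes were higher and 4.86% lower. The test between lines took the Bin-2 change minus the 8093 change under the same drug. Under nilotinib 31 members differed at the midpoint, all with the higher difference in Bin-2, as in 18.0% of all genes and 42.9% of bright genes, and 29 at the end, again all higher in Bin-2, as in 15.6% of all genes and 29.9% of bright genes. After quantile normalization 27 of the 31 still differed at the midpoint, and Polr1a, Polr1b, Nop14 and Pes1 were not called. At the end Utp15 lost its call in 10 of 19 alternative runs, Rrs1 in 2 and Pes1 in 1. Under lonafarnib limma called 0 at the midpoint, where 0.843% of all genes were higher and 3.36% lower in Bin-2, with 5 at an unadjusted p below 0.05, and 1 at the end, Tsr1 at -0.95 ± 0.17, where 2.49% of all genes were lower and 2.12% higher in Bin-2. Without replicate 1 of the lonafarnib start of Bin-2 the midpoint count was 1. Quantile normalization left the midpoint counts of 0, between drugs in Bin-2 and between lines under lonafarnib, unchanged. The comparisons within a course share its start arrays.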

How the data were processed

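RNA of 34 plates was measured on Affymetrix Mouse Gene ST arrays. The deposited values are log2 signals per probeset, 1.02 to 14.37, with array medians between 5.21 and 5.44. The submitters' processing notes name Partek, and how the authors normalized the arrays is not given in the sources used for this report. Of 35557 probesets, 21789 carried 1 gene symbol in the platform annotation, 1621 several and 12147 none. Each of 19938 genes was represented by its brightest probeset on average. The precision is limited by 2 or 3 arrays per group.

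From these values limma 3.58.1 (lmFit, eBayes, R 4.3.3) fitted 1 mean per group over all 34 arrays, which share 22 residual degrees of freedom, in 23 comparisons, with Benjamini-Hochberg adjustment over all genes of each. The alternatives were quantile normalization, median centring, a trended robust prior, leaving out dim genes, the mean of all probesets, a replicate block, only the groups compared, and leaving out each array. Leaving out the midpoint arrays of narrow spread, and the background of genes with a mean signal above 7, were added after seeing the data. Members with values in every array were 16 chosen for their roles, plus the largest called rises and falls of each comparison. Gene order and promoter windows came from RefSeq GRCm38.p6. On simulated data made for the nilotinib midpoint of 8093, 97.0% of genes changed 2-fold and 68.7% of those changed 1.5-fold were recovered. For its end, with 2 arrays, these were 83.6% and 41.8%. The simulation changed 67 of 19938 genes at each of these folds, with independent noise from 1 spread per gene. In the real midpoint comparison 27.5% of genes fell and 22.6% rose, so the rates need not hold there. The members, the pathway list of 97 genes (92 measured) and the marker lists were chosen with earlier results of these data known.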

Additional observations from a re-analysis of the deposited data

Results flagged for a closer look

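Changes under the 2 drugs, or in the 2 lines, differed by a limma test of the difference itself, in each case with an adjusted p below 0.05. In 8093 at the midpoint 29 members differed between the drugs, all lower under nilotinib, with Utp4 at -1.61 ± 0.15 (adjusted p = 1.17e-08) and Dkc1 at -1.49 ± 0.17. After quantile normalization 27 differed there. At the end 25 did, with Gnl3 at -1.88 ± 0.17 (adjusted p = 3.52e-10) and Rrp1b at -1.78 ± 0.19. In Bin-2 at the end 2 did, Mybbp1a at 0.99 ± 0.18 (adjusted p = 3.21e-04) and Tsr1 at 0.76 ± 0.16 (adjusted p = 1.97e-03). These are the 2 members within the low stretch of chromosome 11.

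Between the lines, as the Bin-2 change minus the 8093 change, 31 members differed at the nilotinib midpoint, with Rrp9 at 1.53 ± 0.18 (adjusted p = 2.68e-07) and Utp4 at 1.48 ± 0.15. Quantile normalization left 27 at that midpoint. At the nilotinib end 29 differed, with Rrp1b at 1.72 ± 0.18 and Gnl3 at 1.57 ± 0.16. At the lonafarnib end 1 differed, Tsr1 at -0.95 ± 0.17 (adjusted p = 5.94e-04).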

How the results depend on the processing

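The counts of members called in the 8093 nilotinib course against its start stayed within 1.5 times under every alternative run. Quantile normalization gave 1 for the lonafarnib midpoint and 0 for the nilotinib end of Bin-2, and put Tsr1 at -0.0204 between the nilotinib midpoint and end of 8093. Median centring gave 12 for the lonafarnib midpoint of 8093, and 2 and 8 for the nilotinib and lonafarnib midpoints of Bin-2; it moved the median of all genes at the nilotinib midpoint of 8093 to -0.14, from 0.03 as deposited. A trended robust prior gave 2 for the nilotinib midpoint of Bin-2, as did leaving out the narrow arrays. Without dim genes there were 4 and 8 at the nilotinib and lonafarnib midpoints of Bin-2 and 2 in the lonafarnib midpoint difference between lines. The mean of all probesets gave 2 at the nilotinib end of Bin-2. With only the groups compared there were 0 at the nilotinib end, 1 at the lonafarnib midpoint and 2 at the lonafarnib end of Bin-2, and from midpoint to end 10 in 8093 with nilotinib and 1 with lonafarnib. The cause of these moves was not tested.

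With the replicate number as a block the nilotinib end of Bin-2 had 0 calls, and no other count moved by over 1.5 times. Same-numbered plates correlated between -0.18 and 0.16 in their deviations, and in no comparison were all pairs above 0.1, so the numbers are not taken as pairs.

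Leaving out 1 array at a time gave, from start to midpoint and to end, 34 and 29 to 31 members in 8093 with nilotinib, 4 to 6 and 2 to 10 with lonafarnib, 0 and 0 to 4 in Bin-2 with nilotinib, and 2 to 6 and 2 to 5 with lonafarnib. From midpoint to end it gave 15 to 18 and 1 to 3 in 8093 with nilotinib and lonafarnib, and 0 and 8 to 12 in Bin-2. Between starts it gave 0 in Bin-2 and 0 to 1 in 8093, and 3 to 8 between lines. Differences between drugs gave 29 to 31 and 22 to 26 in 8093, and 0 and 2 to 3 in Bin-2. Differences between lines gave 30 to 32 and 26 to 29 under nilotinib, and 0 to 1 and 1 under lonafarnib.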
